A study of Homo sapiens with 12 samples.

Results

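The extracellular matrix and TGF-beta genes described here are 46 gene symbols, taken by name: 10 collagen chains, 14 matrix glycoproteins, laminins, nidogens and proteoglycans, 4 TGF-beta ligands and latent binding proteins, 6 receptors and SMADs, 3 metalloproteinase inhibitors (TIMPs), 6 enzymes that modify or crosslink collagen, and 3 integrin subunits. All 46 were among the 28256 symbols of the table, and each symbol is represented by its most counted transcript, summed over the 12 libraries. Of the 46, 36 passed the filter on low counts, out of 13166 genes tested. The RNA came from HepG2, an established human line derived from a liver tumour (a hepatoma), labelled as wild type. Cells spent a first 24 h on charcoal-stripped serum, which is low in steroid hormones, and then received for 24 h 1 of 4 treatments with 3 libraries each: dexamethasone (Dex, 50 nM), a synthetic glucocorticoid; KLA (100 ng/µl as labelled); both (DexKLA); or the vehicle DMSO (0.1%). The labels do not spell out KLA, and state how much DMSO was used only where it was given as the vehicle. The labels do not say whether the replicates were separate cultures, so the p-values rest on the variation among libraries, part or all of which may be technical.

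The extracellular matrix is the mesh of secreted proteins on which cells sit. Fibronectin and collagens form fibrils, and laminins, nidogens, collagen IV, agrin and perlecan form the basement membrane sheet, which epithelial cells grip through integrins. TGF-beta is secreted bound to a latent binding protein, signals through a pair of receptor types to SMAD2 and SMAD3, which act with SMAD4, and is held in check by SMAD7. In liver, TGF-beta is a well-known driver of matrix deposition, and hepatocytes themselves secrete fibronectin into the blood.

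Total counts per library ran from 3642685 to 17782057 with Dex, 15998657 to 20933501 with KLA, 4514606 to 11484497 with DexKLA and 3317740 to 5277463 with DMSO. Every KLA library was deeper than every DMSO library and every DexKLA library. Depth and treatment therefore cannot be told apart in KLA against DMSO or in DexKLA against KLA. Among hepatocyte and hepatoma markers all 10 were tested (ALB at 82180 ± 2574 CPM, counts scaled to library size, with Dex, 88450 ± 982 with KLA, 91130 ± 14470 with DexKLA and 66440 ± 8318 with DMSO, SD, n = 3 each). Of 12 fibroblast and stellate cell markers 3 passed the filter, namely ACTA2, PDGFRB and RGS5, and COL1A1 had 0 to 5 counts per library. In RNA from whole cultures, fewer cells of a type and less RNA per cell cannot be told apart. Transcript length was related to the changes, as described with the results it touches.

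The promoters of the genes whose changes recur below are shown first, as 300-base windows (250 bases before to 50 after the annotated start, RefSeq, GRCh38.p14), written 5′ to 3′ on the gene's strand. Entries were matched by symbol for 39 of the 46 genes. Capitals mark matches on either strand to letters searched for: ACANNNTGT, the spaced core of the glucocorticoid response element; AGAACA, a single arm of that element; GTCTAGAC and CAGACA, letters bound by SMAD proteins; and GGGCGG, the GC box bound by SP1, which was added after the sequences had been seen.
TGFBI (chr5:136028738-136029037, plus strand): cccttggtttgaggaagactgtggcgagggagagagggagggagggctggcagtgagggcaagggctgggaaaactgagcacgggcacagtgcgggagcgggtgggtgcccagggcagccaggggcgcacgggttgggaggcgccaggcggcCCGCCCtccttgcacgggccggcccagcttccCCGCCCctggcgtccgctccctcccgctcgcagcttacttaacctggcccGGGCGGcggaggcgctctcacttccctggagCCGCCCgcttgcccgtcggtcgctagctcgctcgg
SPP1 (chr4:87975464-87975763, plus strand): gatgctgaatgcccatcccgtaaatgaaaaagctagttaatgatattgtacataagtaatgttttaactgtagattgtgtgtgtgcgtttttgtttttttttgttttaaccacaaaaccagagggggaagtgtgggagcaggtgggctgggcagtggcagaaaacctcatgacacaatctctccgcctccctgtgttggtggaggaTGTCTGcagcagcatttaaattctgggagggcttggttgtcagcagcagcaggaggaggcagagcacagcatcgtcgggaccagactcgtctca
LAMC1 (chr1:183023170-183023469, plus strand): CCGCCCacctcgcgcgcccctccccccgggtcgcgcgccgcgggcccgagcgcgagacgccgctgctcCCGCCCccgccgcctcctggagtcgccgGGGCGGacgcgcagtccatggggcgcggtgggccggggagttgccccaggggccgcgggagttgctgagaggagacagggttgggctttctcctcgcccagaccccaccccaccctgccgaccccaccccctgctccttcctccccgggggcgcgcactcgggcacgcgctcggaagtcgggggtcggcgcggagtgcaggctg
NID1 (chr1:236065041-236065340, minus strand): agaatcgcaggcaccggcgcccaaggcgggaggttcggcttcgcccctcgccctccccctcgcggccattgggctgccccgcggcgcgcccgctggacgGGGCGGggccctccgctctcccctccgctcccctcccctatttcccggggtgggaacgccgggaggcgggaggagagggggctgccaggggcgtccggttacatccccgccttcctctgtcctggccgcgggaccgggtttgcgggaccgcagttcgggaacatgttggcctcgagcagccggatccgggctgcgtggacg
ITGA6 (chr2:172427086-172427385, plus strand): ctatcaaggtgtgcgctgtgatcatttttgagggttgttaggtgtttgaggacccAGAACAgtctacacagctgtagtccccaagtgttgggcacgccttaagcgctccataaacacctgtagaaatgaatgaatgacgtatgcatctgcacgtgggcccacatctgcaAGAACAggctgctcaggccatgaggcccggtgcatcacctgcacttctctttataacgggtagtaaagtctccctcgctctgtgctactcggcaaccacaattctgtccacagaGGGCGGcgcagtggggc
COL4A2 (chr13:110307034-110307333, plus strand): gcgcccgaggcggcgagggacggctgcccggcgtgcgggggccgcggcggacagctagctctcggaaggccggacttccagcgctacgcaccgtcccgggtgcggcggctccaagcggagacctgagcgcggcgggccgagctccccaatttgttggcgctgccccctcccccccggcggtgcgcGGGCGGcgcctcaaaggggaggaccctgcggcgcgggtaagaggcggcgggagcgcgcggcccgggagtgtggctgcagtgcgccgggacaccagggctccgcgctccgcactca
In these windows the ITGA6 promoter held AGAACA 195 and 81 bases before the start, and SPP1 held CAGACA, read on the other strand, 44 bases before it. For ITGA6 the annotated start lies 250 bases from the start of the counted transcript, and for SPP1 64 bases. Among windows not shown, that of LAMA3 lies 183567 bases from its counted start, that of TIMP3 889 and that of PLOD2 311. In the shares below, the 39 windows are 1 per gene, while the 35116 promoters are all entries. AGAACA stood in 4 of the 39 windows (COL5A1, TGFBR2, LOX and ITGA6), or 10.3%, against 14.8% of all 35116 promoters, and CAGACA in 5 (LAMA3, HSPG2, SPP1, TGFB2 and LOX), or 12.8%, against 16.9%. The spaced core ACANNNTGT and GTCTAGAC matched in 0 of the 39, against 5.37% and 0.202% of all promoters. GGGCGG stood in 31 of the 39, or 79.5%, against 45% of all. The COL4A2 window is shown because it also contains the start of COL4A1 on the opposite strand, the pair being transcribed head to head. A match of letters is a description and not a binding site.

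HepG2 cells expressed most of these genes: 36 of the 46 passed the filter on low counts, where 13166 of all 28256 symbols did. Fibronectin had the highest mean level. Per kilobase of transcript, the scale used to compare genes, FN1 (fibronectin) averaged 730.4 CPM over the 12 libraries, P4HB (protein disulfide isomerase, the beta subunit of prolyl 4-hydroxylase) 715, and SPP1 (osteopontin, a secreted phosphoprotein that binds integrins) 288. The lysyl hydroxylases PLOD1 and PLOD2 followed at 113 and 87.6, then ITGB1 (the integrin beta chain shared by most matrix receptors) at 85.9, TGFBI (a secreted protein induced by TGF-beta) at 70.3 and TGFBR2 (the type II receptor) at 58.3 CPM per kilobase. FN1 alone held between 41.2% (KLA replicate 3) and 55% (DMSO replicate 1) of the summed CPM of the 36 tested genes.

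Of the basement membrane parts, LAMA5, LAMB1, LAMB2 and LAMC1, chains of the trimeric laminins, stood at 17.4, 24.1, 33.1 and 16.4 CPM per kilobase, beside NID1 (nidogen, the link between laminin and collagen IV) at 19.6 and the proteoglycan AGRN (agrin) at 37.5. The other laminin alpha chains were near the floor, with 0 to 4 counts per library for LAMA1 and 3 to 22 for LAMA3. The collagen IV chains among the 46 were at the floor too: COL4A1 had 0 counts in all 12 libraries and COL4A2 had 0 to 6. Of the other collagen IV chains, COL4A5 had 144 to 1124 counts per library (8.02 CPM per kilobase) and COL4A6 had 47 to 305 (2.06), and neither was called in any comparison. A count of 0 allows up to 3 counts, which is 0.145 to 0.845 CPM depending on the library, and this covers counting error only. The remaining genes that failed the filter were COL5A1 (0 to 2 counts), COL6A2 (1 to 10), COL12A1 (0 to 1), NID2 (0 to 10), TGFB2 (0 to 1) and LTBP1 (0 to 14). TGFB1 was thus the counted ligand of the pair, at 12 CPM per kilobase, and LTBP3 the counted latent binding protein, at 8.29. COL18A1, a basement membrane collagen, led the collagens at 49.1, while the other 4 tested collagens (COL27A1, COL6A1, COL2A1 and COL5A2) lay between 0.210 and 10.8.

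**Figure D1:**
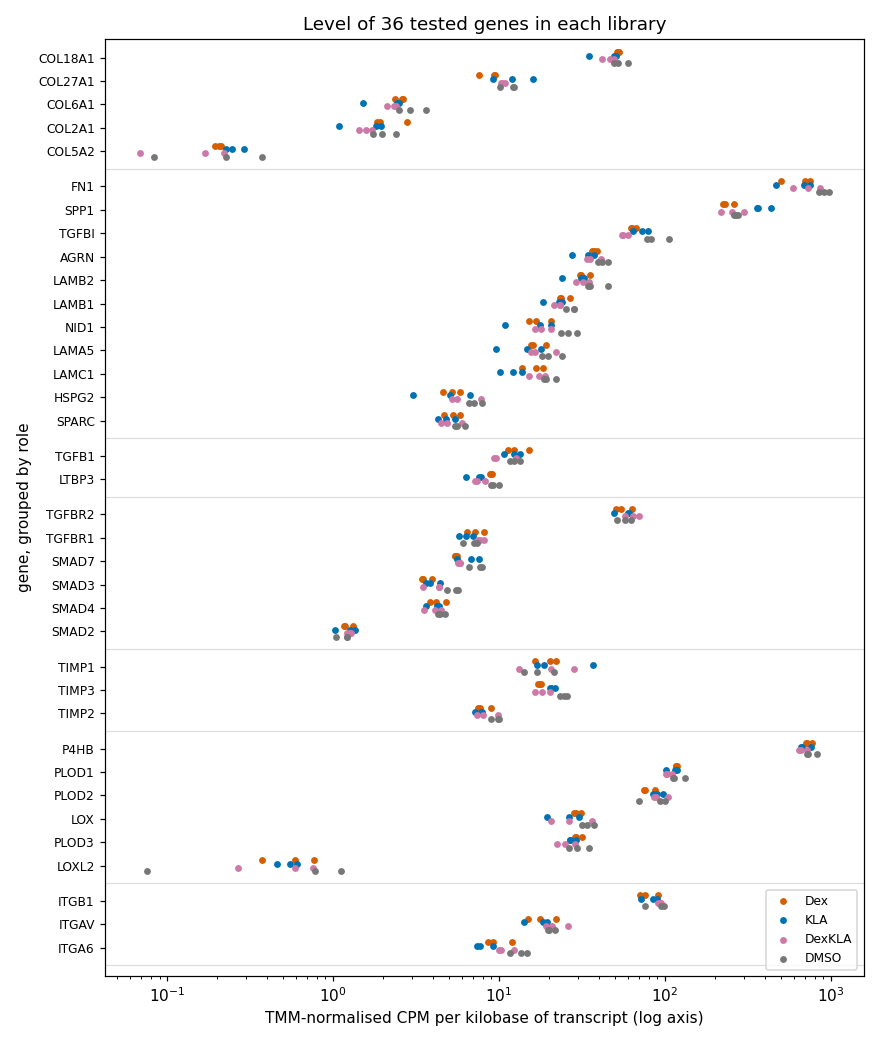
Level of each of the 36 tested genes in each library, as TMM-normalised CPM per kilobase of transcript on a log axis, with 1 point per library coloured by group and genes grouped by role. FN1 and P4HB lie at the right, at 730.4 and 715 CPM per kilobase on average, and COL5A2 at the left, at 0.210.

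With KLA alone, 9 of the 36 tested genes fell and 1 rose, the most of any comparison. The falls took in laminin, nidogen and agrin of the basement membrane, fibronectin, the laminin receptor chain ITGA6, and the TGF-beta genes LTBP3 and SMAD3, by 0.34 to 0.73 on the log2 scale, and SPP1 rose by 0.53. Calls were made where the adjusted p was below 0.05 (edgeR quasi-likelihood test over all 13166 genes, Benjamini-Hochberg adjustment). Over all genes 13.7% were called with KLA against DMSO, 5.94% as lower and 7.78% as higher. The median log2 fold change of the 36 genes was −0.25, against −0.018 for all tested genes, and 30 of the 36 were below 0, against 52.3% of all genes. All 3 KLA libraries lay below all 3 DMSO libraries for 14 genes and above them for 1 (SPP1), where 18.3% and 17.9% of all genes did so. Scaling by library size alone shifted the median of all genes (to −0.11 with Dex, −0.13 with KLA and −0.12 with DexKLA), with medians of −0.29, −0.36 and −0.32 for the 36 genes. It also changed the split of calls over all genes, of which 1024 of 1806 were higher with KLA by TMM and 534 of 2253 by library size; with Dex these were 160 of 270 and 105 of 399, and with DexKLA 374 of 556 and 132 of 476. By role, 6 of the 11 tested glycoproteins, laminins and proteoglycans fell and 1 rose with KLA, with a median of −0.39, and 1 of 2 ligand and latent binding genes, 1 of 6 receptors and SMADs and 1 of 3 integrin chains fell.

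LAMC1, the gamma chain of most laminins (NM_002293, chr1:183023420-183145592, plus strand, hg38 as named in the submitters' processing notes), had 146, 108 and 132 with Dex, 96.4, 109 and 79.7 with KLA, 119, 137 and 150 with DexKLA and 174, 148 and 152 with DMSO (replicates in numerical order, TMM-normalised CPM, the scale of all levels by library below). All KLA libraries lay below all DMSO and all DexKLA libraries, Dex replicate 2 was as low as KLA replicate 2, and the fall with KLA against DMSO was called (−0.73 ± 0.13, adjusted p = 0.00814). NID1 (NM_002508, chr1:235975832-236065090, minus strand) had 118, 86.9 and 96.8 with Dex, 102, 119 and 62.4 with KLA, 94.6, 103 and 119 with DexKLA and 169.5, 137 and 151 with DMSO. The DMSO libraries were above all 9 treated ones, replicate 3 of KLA was lowest, and the fall with KLA was called (−0.69 ± 0.17, adjusted p = 0.0143).

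The other basement membrane genes moved less. LAMA5, the alpha chain that pairs with these laminins (NM_005560, chr20:62309065-62367312, minus strand), had 218, 183 and 177 with Dex, 167, 202 and 109 with KLA, 176, 188 and 249.9 with DexKLA and 273, 225 and 207 with DMSO. KLA replicate 3 was far below the rest, and KLA and DMSO libraries did not overlap (−0.56 ± 0.17, adjusted p = 0.0354). Exons of ADRM1 and LAMA5-AS1 overlap LAMA5 on the opposite strand, and whether the libraries keep strand is not given in the sources used here. LAMB2 (NM_002292, chr3:49121114-49133050, minus strand) had 199.9, 176 and 174 with Dex, 177, 185 and 135 with KLA, 165, 182 and 198 with DexKLA and 258, 199.7 and 195 with DMSO, with DMSO replicate 1 high and KLA replicate 3 low (−0.39 ± 0.13, adjusted p = 0.0463). AGRN (NM_001305275, chr1:1020120-1056114, plus strand) had 275, 269 and 287 with Dex, 254, 275 and 202 with KLA, 249, 260 and 303 with DexKLA and 333, 305 and 290.5 with DMSO. Its KLA libraries lay below its DMSO libraries without overlap, by the smallest of the called changes (−0.34 ± 0.12, adjusted p = 0.0498). LAMB1, which overlaps DLD, had 138 ± 10 with Dex, 122 ± 16.9 with KLA, 127 ± 6.56 with DexKLA and 153 ± 9.38 with DMSO (SD, n = 3 each) and just missed the threshold with KLA (−0.33 ± 0.11, adjusted p = 0.0509), as did the proteoglycan HSPG2 (perlecan; −0.54 ± 0.19, adjusted p = 0.0673). LAMB1 passed in DESeq2 (−0.32, adjusted p = 0.0338), by library size alone, with a filter of 50 reads in 3 libraries, and without KLA replicate 1 or DexKLA replicate 3. HSPG2 passed by library size alone, without the filter and without KLA replicate 2 (−0.82, adjusted p = 0.00991).

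ITGA6, which pairs with beta chains as a laminin receptor (NM_000210, chr2:172427586-172506458, plus strand), had 69.3, 53.3 and 49.9 with Dex, 44.3, 53.2 and 42.4 with KLA, 58.2, 59.7 and 71.1 with DexKLA and 78.3, 67.5 and 85.1 with DMSO. As with LAMC1, KLA libraries lay below DMSO and DexKLA libraries without overlap while overlapping the Dex libraries, and the fall against DMSO was called (−0.72 ± 0.13, adjusted p = 0.00814). Several antisense transcripts overlap ITGA6, of which ITGA6-AS1 is in the table and failed the filter. The other integrin chains were not called with KLA: ITGB1 (−0.14, 95% interval −0.38 to 0.11) and ITGAV (−0.24, 95% interval −0.53 to 0.05). FN1 (NM_001365518, chr2:215360440-215436068, minus strand) had 6334, 4265 and 5921 with Dex, 5891, 6324 and 3991 with KLA, 5024, 6176 and 7302 with DexKLA and 8284, 7250 and 7694 with DMSO. KLA replicate 3 and Dex replicate 2 were the lowest libraries, all KLA libraries lay below all DMSO libraries, and the call was close to the threshold (−0.52 ± 0.17, adjusted p = 0.0462).

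SPP1 was the only gene of the 36 that rose in any comparison at this threshold with the filter on low counts. SPP1 (NM_001251830, chr4:87975650-87983411, plus strand) had 417, 402 and 468 with Dex, 647, 658 and 790.2 with KLA, 543, 457 and 395 with DexKLA and 468, 498 and 481 with DMSO. All KLA libraries were above every other library, with replicate 3 highest (0.53 ± 0.12, adjusted p = 0.0109). In the TGF-beta pathway, LTBP3, which holds TGF-beta latent (NM_001130144, chr11:65538559-65558228, minus strand), had 41.9, 41.2 and 42.7 with Dex, 35.2, 36.4 and 29.5 with KLA, 33.6, 34.6 and 38.4 with DexKLA and 42.8, 46.6 and 41.9 with DMSO. The KLA libraries were below the DMSO and the Dex libraries (−0.38 ± 0.12, adjusted p = 0.0343). SMAD3, the signal carrier (NM_005902, chr15:67065602-67195167, plus strand; an antisense gene, AC087482.1, overlaps it), had 25.5, 22.2 and 22.4 with Dex, 28.6, 24.8 and 23.6 with KLA, 22.4, 28.1 and 28.2 with DexKLA and 35.5, 36.4 and 31.4 with DMSO. All 9 treated libraries lay below all DMSO libraries (−0.43 ± 0.13, adjusted p = 0.0343). The ligand TGFB1 (−0.04, 95% interval −0.34 to 0.25, overlapping HNRNPUL1), the receptors TGFBR1 (−0.11, 95% interval −0.36 to 0.14) and TGFBR2 (−0.01, 95% interval −0.25 to 0.24), and SMAD2, SMAD4 and SMAD7 (0.06, −0.13 and −0.15) were not called.

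**Figure D2:**
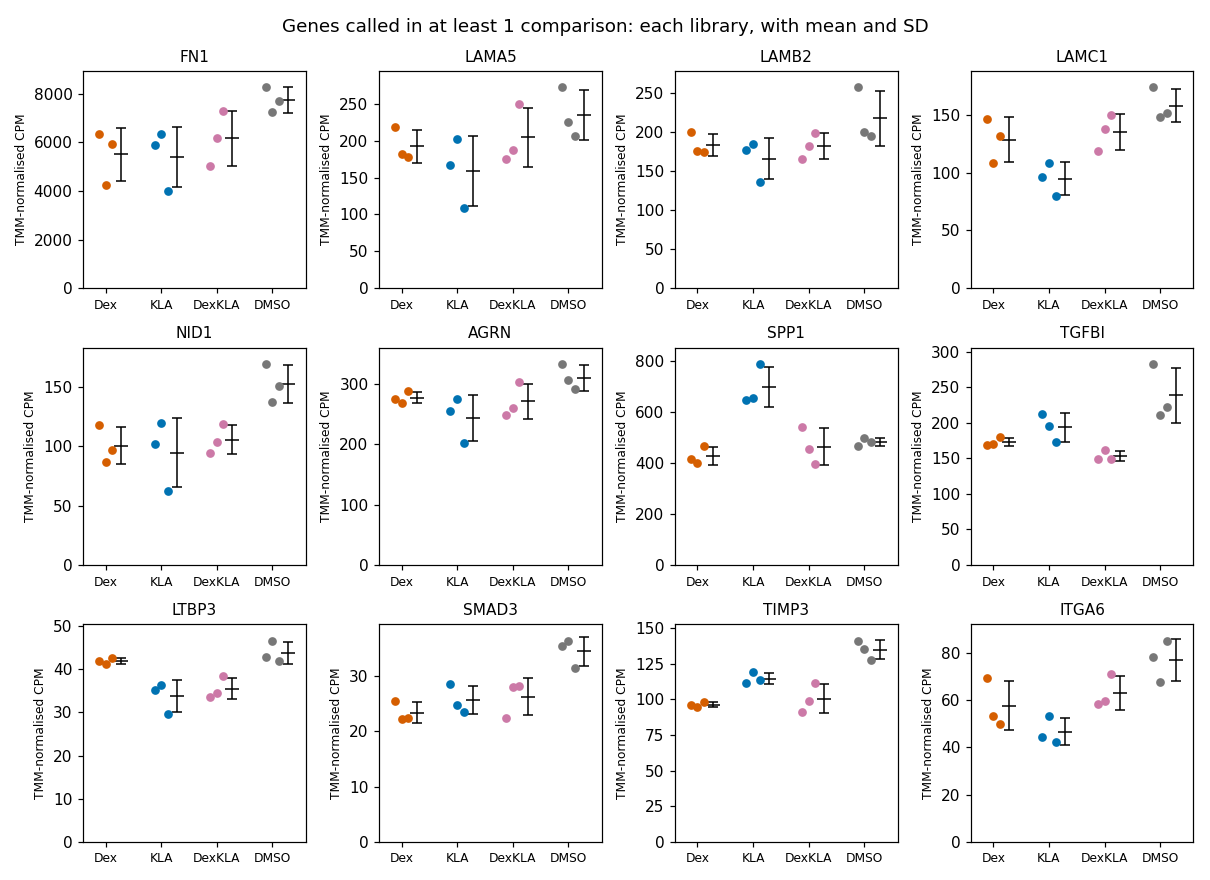
Level of the 12 genes called in at least 1 comparison, as TMM-normalised CPM on axes that start at 0, with 1 point per library (replicates 1 to 3 left to right) and the mean ± SD (n = 3) beside each group. SPP1 is highest with KLA (647 to 790.2 CPM, against 468 to 498 with DMSO), and the KLA means of LAMC1 and ITGA6 are the lowest of the 4 groups.

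The KLA calls rested on certain libraries. Without DMSO replicate 1, 0 of the 36 genes were called and 5 of all genes (edgeR; LAMC1 −0.66, adjusted p = 0.0724, ITGA6 −0.71, 0.0724, NID1 −0.61, 0.0911, SPP1 0.51, 0.0732), while without each of the other 11 libraries LAMC1, NID1, ITGA6 and SPP1 stayed called. Leaving out DMSO replicate 2 or KLA replicate 3 gave 4 called genes each, DMSO replicate 3 gave 5 and Dex replicate 3 gave 6, against 10 with all libraries. Without KLA replicate 3, FN1 stood at −0.34 (adjusted p = 0.187), LAMA5 at −0.34 (0.134) and AGRN at −0.22 (0.204), and without DMSO replicate 1 LAMB2 stood at −0.25 (0.259). The calls of FN1, LAMB2 and AGRN also ended in edgeR with DESeq2 size factors (adjusted p = 0.0505, 0.051 and 0.0546). With the replicate numbers as a block they ended as well (0.071, 0.0578 and 0.0752), as did those of LTBP3 (0.0544) and SMAD3 (0.0531).

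Long transcripts as a whole moved the same way. The 36 genes had a median transcript length of 5210.5 bases, against 3130 for all tested genes, and the 3181 tested genes over 5000 bases had a median log2 fold change of −0.23 with KLA, with 76.5% below 0 and 15.5% called lower. Ranked over all genes (genes do not count as replicates), change and length had a Spearman's rho of −0.467 for KLA against DMSO, −0.448 for Dex, −0.182 for DexKLA, and 0.494 for DexKLA against KLA. With each library's length trend removed, LAMC1 (−0.53 ± 0.10, adjusted p = 0.00992), ITGA6 (−0.57 ± 0.12, 0.0124), NID1 (−0.55 ± 0.14, 0.0256) and SPP1 (0.40 ± 0.10, 0.0256) stayed called with KLA, and the median of the 36 became −0.16. FN1 (−0.31, 0.122), LAMA5 (−0.34, 0.121), LAMB2 (−0.25, 0.153), AGRN (−0.15, 0.318), LTBP3 (−0.28, 0.09) and SMAD3 (−0.25, 0.172) did not.

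**Figure D3:**
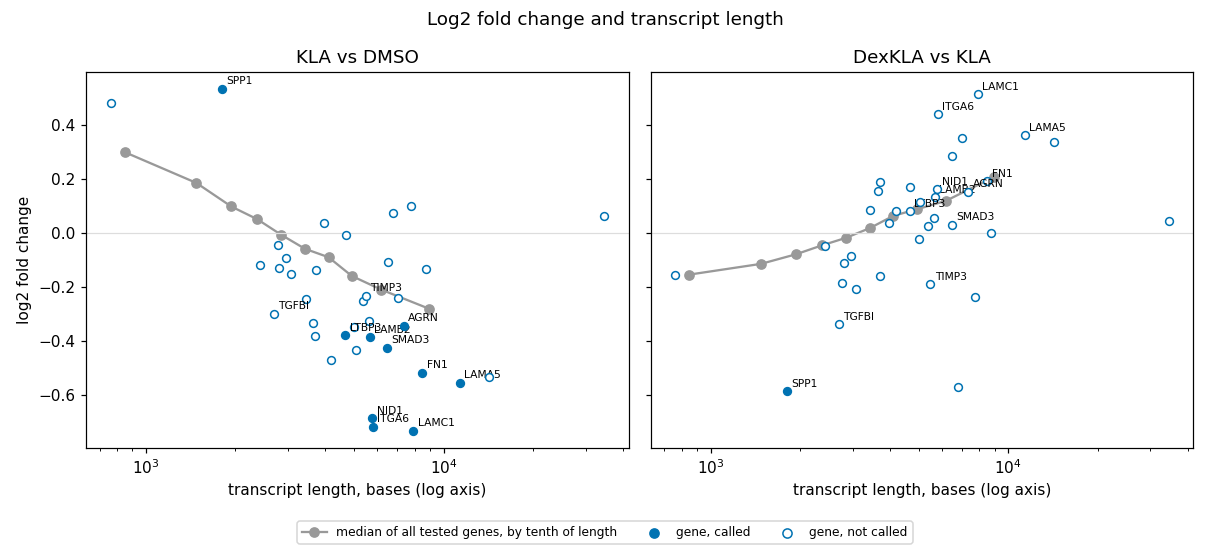
Log2 fold change against transcript length (log axis) for the 36 tested genes, with the median of all tested genes in 10 equal bins of length in grey, for KLA against DMSO and DexKLA against KLA. Filled points are called genes, and names mark genes called in any comparison; with KLA, LAMC1 (−0.73), ITGA6 (−0.72) and NID1 (−0.69) lie below the grey line, and SPP1 (0.53) lies above it.

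The trend was steepest in Dex replicate 2 and KLA replicate 3. A short FN1 transcript that covers the 5′ part of the gene (NM_054034, 2368 bases) had 13.7% of the counts of the full-length transcript in Dex replicate 2 and 11.6% in KLA replicate 3, against 21.6% to 27.1% in the other 10 libraries. The median log2 deviation of the 36 genes from the mean of all libraries was −0.10 in Dex replicate 2 and −0.22 in KLA replicate 3, and 0.16 to 0.24 in the DMSO libraries. DexKLA replicate 1 was at −0.13, without a like deviation of long genes (−0.02). With the libraries Dex 2 and KLA 3 both left out, an alternative chosen with the data in view, LAMC1, NID1, ITGA6 and SPP1 stayed called with KLA.

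**Figure D4:**
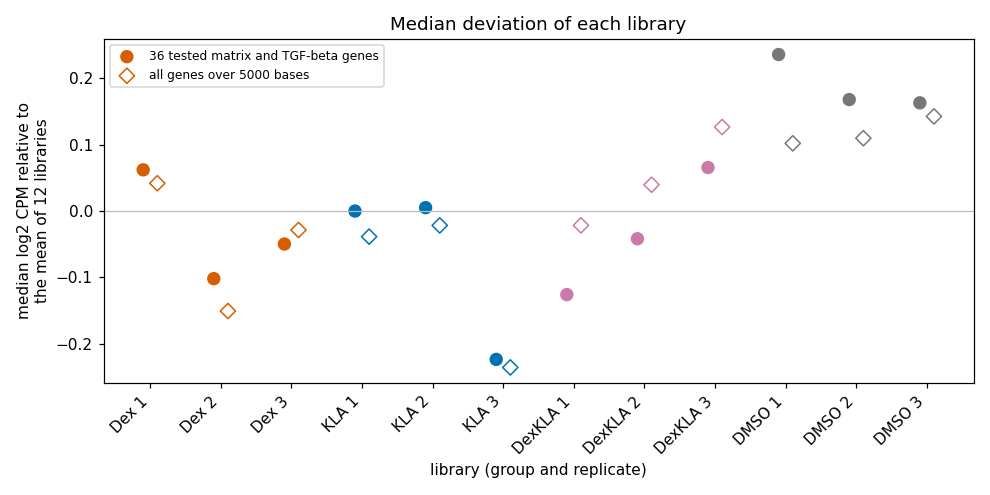
Median log2 CPM of the 36 genes (filled circles) and of all tested genes over 5000 bases (open diamonds) in each library, relative to the mean of all 12 libraries. KLA replicate 3 is lowest for both (−0.22 and −0.24), and the 3 DMSO libraries are highest for the 36 genes (0.16 to 0.24).

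None of the 6 enzymes that modify or crosslink collagen was called in any comparison, and their levels spanned a wide range. P4HB averaged 1771 ± 73.2 with Dex, 1691 ± 129.6 with KLA, 1632 ± 101 with DexKLA and 1834 ± 139 with DMSO, and its change with KLA was −0.12, 95% interval −0.34 to 0.10 (AC145207.3 overlaps it). Of the lysyl hydroxylases, PLOD1 averaged 346 ± 3.39 with Dex, 329 ± 26.9 with KLA, 310.5 ± 15.4 with DexKLA and 352 ± 35.1 with DMSO. PLOD2 averaged 316 ± 28.2 with Dex, 359 ± 25.9 with KLA, 369 ± 38.7 with DexKLA and 349.5 ± 63.8 with DMSO. PLOD3, which overlaps ZNHIT1, averaged 83.2 ± 4.20 with Dex, 77.2 ± 3.50 with KLA, 71.1 ± 8.81 with DexKLA and 85 ± 12.3 with DMSO. LOX, the lysyl oxidase that crosslinks collagen and elastin, averaged 149.8 ± 8.39 with Dex, 129 ± 27.9 with KLA, 140.4 ± 39.9 with DexKLA and 174 ± 14.7 with DMSO (SRFBP1 overlaps it). All KLA libraries of LOX lay below all DMSO libraries, and its change with KLA missed the threshold (−0.44, 95% interval −0.77 to −0.10, adjusted p = 0.0703). It passed by library size alone (−0.55, adjusted p = 0.0211), without the filter (−0.42, 0.00694), and without KLA replicate 1, DexKLA replicate 2 or DexKLA replicate 3, and stood at −0.32 (0.185) with the length trend removed. LOXL2, a related oxidase, was the least expressed enzyme, with 1 to 40 counts per library, and overlaps ENTPD4. Among receptors, ITGB1 averaged 293 ± 37.7 with Dex, 304 ± 34.3 with KLA, 346 ± 8.77 with DexKLA and 334 ± 45.2 with DMSO. TGFBR2 averaged 262 ± 29.9 with Dex, 266 ± 30.3 with KLA, 299 ± 27.7 with DexKLA and 267 ± 26.5 with DMSO. COL18A1, which overlaps SLC19A1, averaged 278 ± 2.64 with Dex, 241 ± 47.6 with KLA, 245 ± 19.9 with DexKLA and 287 ± 28.6 with DMSO, and 0 of the 5 tested collagens were called in any comparison. TIMP1, a secreted metalloproteinase inhibitor, averaged 14.9 ± 2.19 with Dex, 18.4 ± 8.42 with KLA, 15.8 ± 5.81 with DexKLA and 13.3 ± 2.84 with DMSO (all CPM, SD, n = 3 each), and its change with DexKLA against DMSO was 0.33, 95% interval −0.27 to 0.92. The log2 fold changes of all 36 genes ran from −0.61 (NID1) to 0.21 (TIMP1) with Dex and from −0.64 (TGFBI) to 0.33 (TIMP1) with DexKLA.

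With Dex alone, 3 of the 36 genes fell and 0 rose, where 2.05% of all genes were called (0.835% as lower and 1.22% as higher). They were SMAD3, TGFBI and TIMP3, which encodes an inhibitor of metalloproteinases that stays bound to the matrix. TGFBI (NM_000358, chr5:136028988-136063818, plus strand) had 169, 169.6 and 179 with Dex, 213, 195 and 172 with KLA, 149.6, 161 and 149 with DexKLA and 283, 210.3 and 222 with DMSO. All Dex and all DexKLA libraries lay below all DMSO libraries, DMSO replicate 1 was the highest, and the fall with Dex was called (−0.46 ± 0.12, adjusted p = 0.0383). TIMP3 (NM_000362, chr22:32800816-32863041, plus strand) had 96.2, 94.8 and 98.1 with Dex, 112, 119 and 113 with KLA, 90.9, 98.9 and 111 with DexKLA and 141, 135 and 128 with DMSO. Its 3 Dex libraries were close together and below all DMSO and all KLA libraries (−0.48 ± 0.10, adjusted p = 0.0161). SMAD3, given above, fell with Dex as well (−0.57 ± 0.14, adjusted p = 0.034).

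The median log2 fold change of the 36 genes with Dex was −0.19, against −0.011 for all genes (−0.10 with the length trend removed), and 31 were below 0, against 51.6% of all genes. Dex and DMSO libraries did not overlap for 13 genes, all lower with Dex, where 13.6% of all genes were lower and 14.5% higher without overlap. NID1 (−0.61 ± 0.17, adjusted p = 0.0597), ITGA6 (−0.43 ± 0.14, adjusted p = 0.0869), the inhibitory SMAD7 (−0.43 ± 0.15, adjusted p = 0.11) and FN1 (−0.49 ± 0.17, adjusted p = 0.112) missed the threshold. NID1 passed in DESeq2 (−0.60, adjusted p = 0.028), by library size alone, without the filter, and without Dex replicate 1, KLA replicate 2, KLA replicate 3 or DexKLA replicate 3. FN1, ITGA6, HSPG2 and COL27A1 passed without the filter and without KLA replicate 3, and ITGA6 also without Dex replicate 1. Genes over 5000 bases had a median of −0.18 with Dex, and with the length trend removed TGFBI (−0.49, adjusted p = 0.0234) and TIMP3 (−0.38, 0.0435) stayed called while SMAD3 (−0.43, 0.0915) did not. The count of 3 became 0 without DMSO replicate 1, Dex replicate 2 or Dex replicate 3, 1 without DMSO replicate 2 or 3, and 8 without KLA replicate 3. With the libraries Dex 2 and KLA 3 both left out, TIMP3 alone was called.

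With both agents, TGFBI (−0.64 ± 0.12, adjusted p = 0.00535) and TIMP3 (−0.42 ± 0.10, adjusted p = 0.0254) fell against DMSO, 2 of the 36 genes, where 4.22% of all genes were called (1.38% as lower). These are also genes that fell with Dex alone, but both comparisons use the same DMSO libraries. With KLA alone TGFBI (−0.30, interval −0.53 to −0.06) and TIMP3 (−0.23, interval −0.44 to −0.03) were lower too, without being called. By library size alone both were called with KLA (edgeR, adjusted p = 0.0215 and 0.0377). With the length trend removed they stood at −0.33 and −0.09 with KLA and were not called. Of the genes called with KLA alone, the log2 fold changes with DexKLA were −0.22 for LAMC1, −0.28 for ITGA6, −0.20 for LAMA5, −0.33 for FN1, −0.40 for SMAD3, −0.30 for LTBP3, −0.26 for LAMB2, −0.19 for AGRN and −0.05 for SPP1, and none of these 9 was called. SMAD3 passed without DexKLA replicate 3 (−0.47, adjusted p = 0.0499). NID1 (−0.53 ± 0.17, adjusted p = 0.0782) missed the threshold, and was called with the length trend removed (−0.49, adjusted p = 0.0469), in DESeq2, without the filter, without KLA replicate 3 or DexKLA replicate 3, and with the libraries Dex 2 and KLA 3 both left out. The median of the 36 was −0.22, against −0.017 for all genes, with 29 below 0 (all genes 52.1%) and 11 lower and 2 higher without overlap (all genes 12.8% and 13.4%). TGFBI lost its call without DMSO replicate 1 only (−0.50, adjusted p = 0.0527). The count of 2 became 0 without that library, 1 without DMSO replicate 2, DexKLA replicate 1 or DexKLA replicate 2, and 4 without DexKLA replicate 3.

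**Figure D5:**
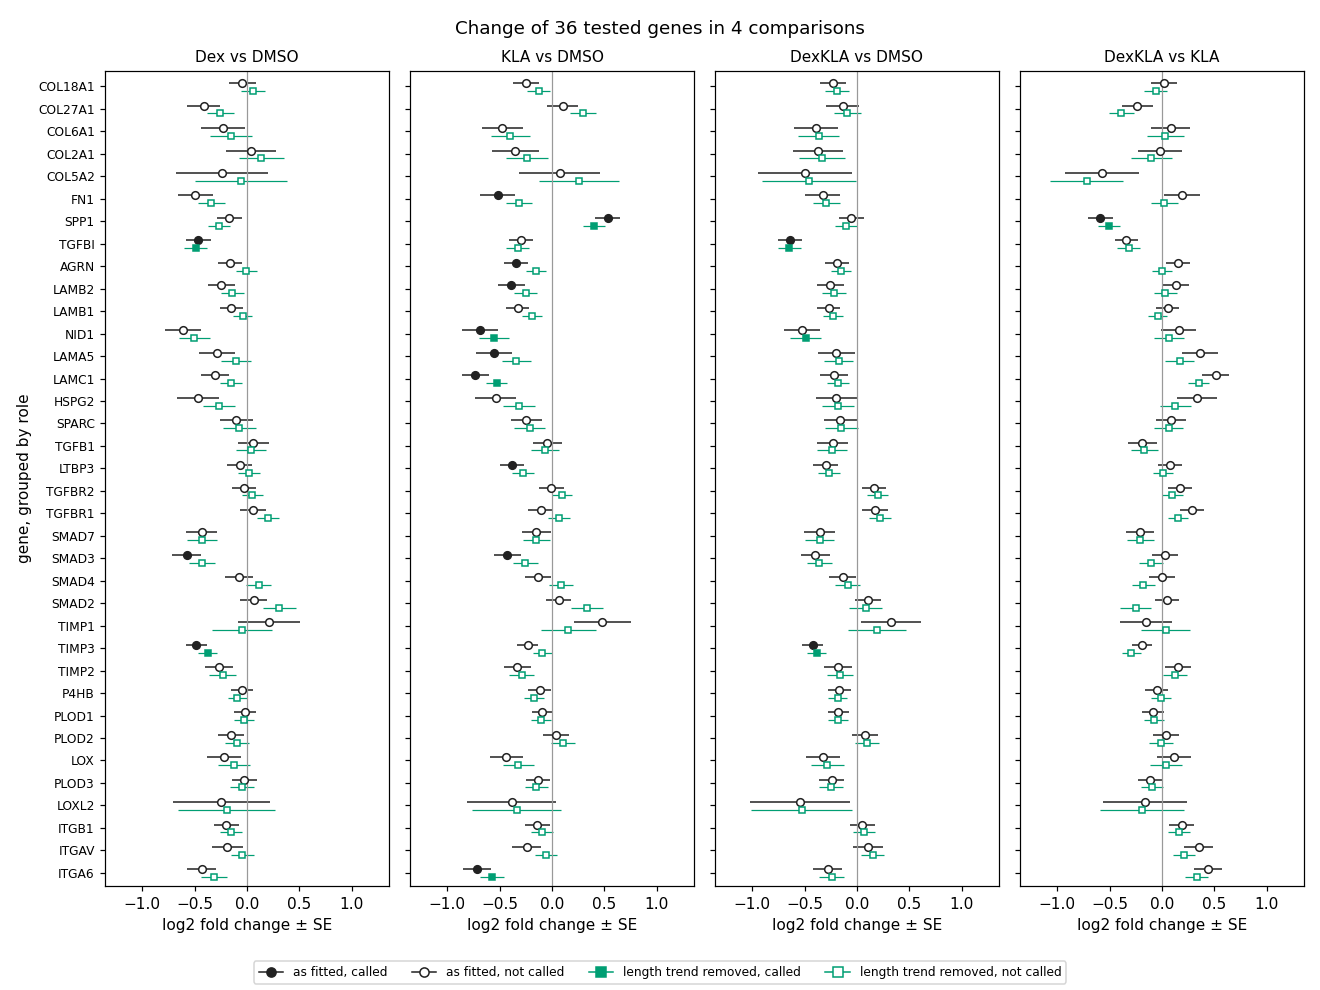
Log2 fold change ± SE of each of the 36 tested genes in 4 comparisons, as fitted (circles) and with each library's length trend removed (squares), with filled marks for called genes. TGFBI and TIMP3 are filled in the Dex and DexKLA panels with both methods, and LAMC1, NID1, ITGA6 and SPP1 in the KLA panel.

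SPP1 fell when Dex was added to KLA. It had 543, 457 and 395 CPM with DexKLA and 647, 658 and 790.2 with KLA, without overlap, and was the only gene of the 36 called (−0.59 ± 0.12, adjusted p = 0.0147), where 0.653% of all genes were. Against DMSO the change of SPP1 with DexKLA was −0.05, 95% interval −0.30 to 0.19. The call against KLA stayed with the length trend removed (−0.50, adjusted p = 0.0147). It ended without KLA replicate 3 (−0.49, 0.0508), DexKLA replicate 3 (−0.48, 0.0769) or DexKLA replicate 2, and with the libraries Dex 2 and KLA 3 both left out. LAMC1 (0.51 ± 0.13, adjusted p = 0.075) and ITGA6 (0.44 ± 0.13, adjusted p = 0.192) were higher with DexKLA than with KLA in all libraries and did not reach the threshold. LAMC1 did in DESeq2 (0.51, adjusted p = 0.0326), and in edgeR without the filter (0.50, 0.00352) and without KLA replicate 2 (0.62, 0.0446), and stood at 0.35 (0.164) with the length trend removed. The median of the 36 was 0.05, against 0.003 for all genes, and 14 were below 0 (all genes 49.4%). The sign of this median was not stable: it was −0.03 with 20 of 37 tested genes below 0 without KLA replicate 3, −0.003 with 18 below 0 with the length trend removed, and 0.11 without KLA replicate 1. Groups did not overlap for 4 genes in each direction (all genes 7.16% lower and 8.1% higher). The median of genes over 5000 bases was 0.15.

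Against Dex alone, DexKLA gave no called gene: 0 of the 36 and 0% of all genes in edgeR, and 0 in DESeq2, with 1 of the 36 and 935 of all genes at an unadjusted p under 0.05. The median was 0.05, against 0.004, with 17 below 0 (all genes 49.2%), and groups did not overlap for 6 lower and 3 higher genes (all genes 6.31% and 6.4%). That median too changed sign, to −0.07 with the length trend removed, −0.02 without Dex replicate 2 and −0.02 without DexKLA replicate 3. The interaction, which asks whether the change by Dex differs between cells with and without KLA, was called for 0 of the 36 and 0.038% of all genes (0.0304% above 0 and 0.0076% below), with 12 of the 36 and 2922 of all genes at an unadjusted p under 0.05. ITGA6 (0.87 ± 0.19) and LAMC1 (0.82 ± 0.18) had the lowest adjusted p (0.0544 each), followed by NID1 (0.77 ± 0.24, adjusted p = 0.0794) and SMAD3 (0.60 ± 0.19, adjusted p = 0.0799). DESeq2 called ITGA6, LAMC1 and NID1 (adjusted p = 0.00924, 0.0095 and 0.0433). In edgeR, ITGA6 and LAMC1 passed by library size alone (0.0457 each), without the filter, and without Dex replicate 1, KLA replicate 2 or DexKLA replicate 1. Of the genes tested, 5 of 36 passed without KLA replicate 2 and 3 of 37 without DexKLA replicate 1. With the length trend removed ITGA6 was at 0.65 (adjusted p = 0.149) and LAMC1 at 0.50 (0.173). The median of the 36 was 0.20 (0.08 with the length trend removed), against 0.016, with 9 below 0 (all genes 48.5%), and that of genes over 5000 bases was 0.33.

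Other genes of the same pathways were followed in lists by function. Of 18 tested matrix glycoproteins and proteoglycans outside the 46, 1 rose and 1 fell with Dex, or 11.1% against 2.05% of all genes called: MATN3, a matrilin that bridges matrix fibrils (1.31 ± 0.11, adjusted p = 3.01e-07), and THBS1, a thrombospondin that can release TGF-beta from its latent form (−0.95 ± 0.19, adjusted p = 0.0094; FSIP1 overlaps it). Both were called with DexKLA against DMSO too (1.36 and −0.66), as was the lower VTN, the vitronectin secreted by hepatocytes (−0.56 ± 0.12, adjusted p = 0.011). With KLA 3 of the 18 fell and 0 rose, so 16.7% were called, against 13.7% of all genes (5.94% lower). SMOC1, a matrix protein of the SPARC family, was higher with DexKLA than with KLA (0.56 ± 0.11, adjusted p = 0.0174). Of 20 tested collagen processing genes, 1 (5%) was called in each comparison with DMSO, against 2.05% of all genes with Dex, 13.7% with KLA and 4.22% with DexKLA. P4HA1, the catalytic partner of P4HB in prolyl hydroxylation, rose with Dex (0.79 ± 0.17, adjusted p = 0.0196) and with DexKLA (0.92 ± 0.17, adjusted p = 0.00654), and MIA3, which loads collagen for export, fell with KLA (−0.48 ± 0.14, adjusted p = 0.0273). Of 15 proteases and inhibitors, MMP11 alone was called, as it fell with DexKLA (−0.63 ± 0.16, adjusted p = 0.0349; CHCHD10 overlaps it). That is 6.67% of the list, against 4.22% of all genes called with DexKLA (1.38% lower). Of 6 tested other collagens, 0 were called in any comparison. MATN3 kept its calls whichever library was left out. The Dex call of THBS1 ended without DMSO replicate 1 or Dex replicate 2, and that of P4HA1 without DMSO replicate 1, DMSO replicate 2 or Dex replicate 3. The DexKLA calls of VTN, P4HA1, THBS1 and MMP11 and the KLA call of MIA3 ended without DMSO replicate 1 among others, and the SMOC1 call without DexKLA replicate 2. That of MIA3 also ended with the length trend removed (−0.26, adjusted p = 0.153).

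Of 14 tested integrins and linkers, 2 fell with KLA, or 14.3% against 13.7% of all genes called (5.94% lower). They were the cytoskeletal linkers LIMS1 (−0.52 ± 0.11, adjusted p = 0.00923; its near-identical copies could share reads) and TLN1 (talin, overlapping CREB3; −0.62 ± 0.14, adjusted p = 0.0114). Of 30 other TGF-beta, BMP and activin genes, 4 fell with KLA, or 13.3% against the same 13.7%, among them SKI, a SMAD repressor (−0.64 ± 0.14, adjusted p = 0.0109), SMAD9, a BMP signal carrier (−0.72 ± 0.19, adjusted p = 0.0192), and VASN, which binds TGF-beta (−0.39 ± 0.12, adjusted p = 0.0341). FURIN, a protease that cuts the TGF-beta precursor, fell with Dex (−0.93 ± 0.14, adjusted p = 0.000745) and DexKLA (−0.88 ± 0.14, adjusted p = 0.00122). The median of these 30 was −0.21 with Dex and −0.23 with KLA, against −0.011 and −0.018 for all genes and −0.18 and −0.23 for genes over 5000 bases. Of 22 tested TGF-beta response genes, 3 were lower with DexKLA than with KLA, or 13.6% against 0.653% of all genes called (0.213% lower): ID1 (−0.58 ± 0.13, adjusted p = 0.0326), CCN2 (−0.54 ± 0.12, adjusted p = 0.0341) and ID2 (−0.54 ± 0.12, adjusted p = 0.0436). CCN2 was also in the list of other matrix glycoproteins and proteoglycans, so these lists share genes. ID1 had risen with KLA (0.41 ± 0.13, adjusted p = 0.0406), and CDH2, N-cadherin, fell with Dex (−0.51 ± 0.13, adjusted p = 0.0386), KLA (−0.39) and DexKLA (−0.52). The median of the 22 was −0.14 with Dex, −0.06 with KLA and −0.17 with DexKLA, against −0.011, −0.018 and −0.017 for all genes. FURIN kept both calls whichever library was left out. The Dex call of CDH2 ended without any 1 of the DMSO libraries, Dex replicate 2, Dex replicate 3 or DexKLA replicate 2. It also ended with the replicate block and with the libraries Dex 2 and KLA 3 both left out. The DexKLA call of CDH2 ended without DMSO replicate 1, DMSO replicate 2, DexKLA replicate 1 or DexKLA replicate 2. Without DMSO replicate 1 the KLA calls of LIMS1, TLN1, SKI, SMAD9, VASN, ID1 and CDH2 ended, and the ID1 call between DexKLA and KLA did too. The calls of CCN2, ID1 and ID2 between DexKLA and KLA also ended without KLA replicate 1 (−0.40, −0.45 and −0.47, adjusted p = 0.235, 0.187 and 0.181). All of these ended too without DMSO replicate 3, Dex replicate 3, DexKLA replicate 2 or DexKLA replicate 3, and with the length trend removed. The KLA call of ID1 ended by library size alone too. With the length trend removed the KLA calls of ID1 (0.19, adjusted p = 0.325) and CDH2 (−0.33, 0.0636) ended as well.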

How the data were processed

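Total RNA-seq of 12 HepG2 libraries was used. The authors deposited expected counts per RefSeq transcript (steps of 0.5, 32.6% to 36.4% of values not whole); tools named in the submitters' processing notes, without roles, are HOMER 4.10, BWA 0.7.17 and Trimmomatic, with the build hg38. How reads shared between transcripts were counted is not given in the sources used here. Of the 18 FN1 transcripts, all but the short NM_054034 averaged between 5679 and 6205 CPM each. Reads shared by these FN1 transcripts thus appear to be counted in full for each, and not divided among them. The transcript with the highest total was kept per symbol, 406 transcripts without a symbol (1.71% to 2.55% of counts) were left out, and counts were rounded. edgeR 4.0.16 (R 4.3.3) was run with TMM scaling, filterByExpr (minimum count 10) and the quasi-likelihood test on all 12 libraries, with 1 mean per group and 8 residual degrees of freedom. P-values were adjusted by Benjamini-Hochberg over 13166 genes at 0.05, and ± after a log2 fold change is its SE. The tests were checked on simulated counts with the same spread for every gene. The simulation held no length trend particular to single libraries, so the check does not cover such trends. Alternatives were DESeq2 1.42.0, other scalings and filters, a replicate block, removal of each library's length trend (loess, span 0.3) and leaving out libraries. No 2 replicates were copies (lowest chi-square per degree of freedom 1.92).

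The members and lists were chosen with earlier results of these data known. Members called in any comparison are given by library, of the others the 10 highest per kilobase by group means, and from each other list at most 4 called genes with the smallest p. Intervals cover 95%.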

Additional observations from a re-analysis of the deposited data

How the results depend on the processing

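No named result changed sign. Of the 52 named results, other settings left 358 values on the same side of the threshold and 55 not, and leaving out single libraries 454 and 170. Called among the 36 genes with Dex against DMSO were 8 without the filter, 1 with the replicate block and 1 without Dex 2 and KLA 3. With KLA against DMSO they were 17 by library size alone, 7 with DESeq2 size factors, 5 with the block, 4 with the length trend removed and 4 without that pair. For DexKLA against KLA they were 2 in DESeq2, 2 without the filter and 0 without the pair, and for the interaction 2 by library size, 3 in DESeq2 and 7 without the filter. Leaving out 1 library gave 0 to 8 with Dex, 0 to 13 with KLA, 0 to 4 with DexKLA, 0 to 2 for DexKLA against KLA, 0 to 0 for DexKLA against Dex and 0 to 5 for the interaction. Over all genes, Dex against DMSO gave 650 in DESeq2, 909 without the filter, 134 with the block and 119 without the pair; KLA 1064 with the length trend removed and 627 without the pair; DexKLA against DMSO 920 in DESeq2, 987 without the filter, 325 with the block and 1094 without the pair. DexKLA against KLA gave 204 and DexKLA against Dex 12 without the filter. The interaction gave 0 with DESeq2 size factors, 230 by library size, 705 in DESeq2, 1040 without the filter, 0 with the block, 2 with the length trend removed and 3 without the pair. Leaving out 1 library gave 56 to 915, 5 to 2363, 48 to 1461, 52 to 94, 0 to 0 and 0 to 681 in the same order of comparisons. The cause of these moves was not tested. Replicate numbers did not pair the libraries: same-numbered libraries correlated at −0.31 to 0.17 over 18 pairs, and 0 of 12 correlated best with their own number. The 10 genes under the filter had at most 22 counts in any library, and no change is reported for them.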

Other observations

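Among the hepatocyte and hepatoma markers, AFP, the fetal serum protein kept by hepatomas, rose with Dex (1.13 ± 0.15, adjusted p = 0.00019) and with DexKLA (1.24 ± 0.15, adjusted p = 7.49e-05) whichever library was left out. FGB, a fibrinogen chain, fell with Dex (−0.58 ± 0.11, adjusted p = 0.00635), and the call was lost without DMSO replicate 3 or Dex replicate 3. With KLA, 1 of the 10 markers rose and 2 fell, or 30% against 13.7% of all genes called. AFP rose (0.51 ± 0.15, adjusted p = 0.0304), a call that ended without any 1 of the DMSO or KLA libraries. HNF4A, a hepatocyte transcription factor, changed by −0.38 ± 0.10, adjusted p = 0.0226 and APOB, the apolipoprotein of secreted lipid particles, by −0.70 ± 0.20, adjusted p = 0.025 (AC010872.1 overlaps it). The calls of HNF4A and APOB ended without DMSO replicate 1, DMSO replicate 3 or KLA replicate 3, and that of HNF4A with the length trend removed. RGS5, a pericyte marker that overlaps NUF2, rose with DexKLA (1.67 ± 0.45, adjusted p = 0.0414) from a low level, and this call ended without any 1 of the 3 DMSO libraries, Dex replicate 3, DexKLA replicate 1 or DexKLA replicate 3, by library size alone and with the replicate block.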
